A study of Mus musculus with 13 samples.

Results

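Terminal erythroid maturation and organelle clearance was followed through 10 genes in F4/80+ cells of the mouse fetal liver (FL). The genes are Foxo3, Bnip3l, Ulk1, Gabarapl2, Map1lc3b, Trim58, Ube2o, Ube2l6, Xpo7 and Tmcc2. They were taken by name for their known roles, but with earlier results of these data known. Counts of them set beside shares of all genes are therefore a description only. All 10 were found among 23337 genes in the EKLF+/+ and EKLF-/- counts, 35389 in the EKLF/GFP libraries and 54227 in a single-cell table. F4/80, encoded by Adgre1, is a surface protein of macrophages, and EKLF, encoded by Klf1, is a transcription factor of red cell precursors. All cells came from embryos of day E13.5, and the labels give the strain of every sample as C57BL/6. The study's list of reagents gives the EKLF-null line in a 129S4/SvJae background instead, so whether EKLF+/+ and EKLF-/- embryos shared a background is unclear. Bulk RNA-Seq was made from 3 EKLF+/+ (wild type) and 3 EKLF-/- (null) libraries of F4/80+ cells sorted by FACS. A further 3 EKLF/GFP+ and 3 EKLF/GFP- libraries came from wild type embryos that carry pEKLF-GFP, a reporter in which the EKLF promoter drives GFP, with F4/80+ cells split by their GFP signal. GFP reports the activity of the transgene's promoter and not the EKLF protein itself. RNA of the EKLF/GFP+ cells was extracted with a different kit from that of all other bulk libraries, so that kit and group cannot be told apart in that comparison. The study chose this kit because of low cell numbers. The RNA integrity it gives for these cells is below that of the EKLF+/+ and EKLF-/- samples, and its part in the differences was not tested. The single-cell library is 1 sample of EKLF+/+ F4/80+ cells, pooled from 2 littermate embryos and selected with magnetic beads.

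A red cell precursor that matures expels its nucleus and then removes its mitochondria, ribosomes and other organelles. Autophagy wraps organelles in a membrane. Ulk1 is a kinase that starts this process, and Map1lc3b and Gabarapl2 are members of the LC3 and GABARAP families that are attached to the growing membrane. Bnip3l, also called Nix, sits on mitochondria and binds these proteins, and it is known for the removal of mitochondria from reticulocytes. Foxo3 is a transcription factor of late erythroblasts. Ubiquitin enzymes tag proteins for removal, and Ube2o, Ube2l6 and Trim58 belong to them. In the fetal liver, macrophages at the centre of erythroblastic islands hold the maturing cells and take up the expelled nuclei.

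Between 10695514 and 15362161 counts per library fell on genes in the EKLF+/+ and EKLF-/- samples, and between 22721900 and 28735322 in the EKLF/GFP samples. These were 27.3% to 28.9% of all reads in EKLF+/+ and 31.1% to 32.8% in EKLF-/-, so that this share differed between the genotypes without overlap, and its part in the differences was not tested. Klf1, the targeted gene, was at 305 to 376 CPM in EKLF+/+ and 57.1 to 64.2 CPM in EKLF-/-, where CPM stands for counts scaled to library size after TMM normalization. Its log2 fold change was -2.53 ± 0.12 (SE, n = 3 per group; edgeR adjusted p = 7.22e-06). Klf1 was at 87.3 to 101 CPM in EKLF/GFP+ and 28.6 to 45.7 CPM in EKLF/GFP-. Adgre1, the gene of the F4/80 protein used for sorting, was at 26.8 to 33.6 CPM in EKLF+/+ and 29.4 to 40.3 CPM in EKLF-/-. The 10 macrophage-like markers summed to 294 to 352 CPM in EKLF+/+, and the 10 erythroid-like markers, Klf1 among them, to 11690 to 13610 CPM in the same libraries. The cells that these erythroid transcripts came from were not tested in bulk. Each group has 3 biological replicates per the study's methods, and no source used here gives the number of embryos behind each library.

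The genes lie on 7 chromosomes of GRCm38, the build of the files. Tmcc2 spans chr1:132356315-132391281, Ube2l6 chr2:84798828-84810335, Ulk1 chr5:110784488-110810097, Foxo3 chr10:42181841-42276755, Trim58 chr11:58640465-58652404 and Ube2o chr11:116537740-116581447. Bnip3l spans chr14:66985239-67008877 and Xpo7 chr14:70654246-70766628. Gabarapl2 at chr8:111940703-111953612 and Map1lc3b at chr8:121590361-121598760 share a chromosome with the targeted Klf1 gene, at 27.0 and 36.7 Mb from it, and the part of strain background in their values was not tested. Exons of Map1lc3b overlap Zcchc14 and those of Tmcc2 overlap Gm15849, each on the opposite strand, and Xpo7 overlaps Npm2 on its own strand, so that reads in those stretches are uncertain. RefSeq promoter windows, from 250 bases before to 50 after a transcript start, were at hand for 7 of the 10 genes, with 9 windows in all since Tmcc2 has 3 starts. EKLF is known to bind CACCC-type sites, for which the letters CCNCNCCC were searched on both strands, with N for any base, and the letters AGATAA were searched for the erythroid factor GATA1. CCNCNCCC was in 49.5% of all 32851 windows, AGATAA in 11.2% and both in 3.4%, and 18.5% of all CCNCNCCC matches also hold CCCGCCC, the letters of a GC box bound by other factors. CCNCNCCC was in 7 of the 9 windows and AGATAA in 1. The windows below are those of 3 genes that fell in EKLF-/- and of Map1lc3b, which rose there, with matches in capitals, and such a match is no evidence of binding. For Tmcc2 the window of the start shared by transcripts Tmcc2-205 and Tmcc2-206 is given, at chr1:132367899-132368198 on the minus strand, since Tmcc2-206 carries most of its reads. It holds CCCCACCC on the opposite strand at -110 and AGATAA on the opposite strand at -33, counted from the transcript start. The Ulk1 window is chr5:110810032-110810331 on the minus strand, and its 3 matches all hold the GC box letters. The Trim58 window at chr11:58640215-58640514 on the plus strand holds neither run of letters, and the Map1lc3b window at chr8:121590188-121590487 on the plus strand holds CCCCACCC at -27.
Tmcc2: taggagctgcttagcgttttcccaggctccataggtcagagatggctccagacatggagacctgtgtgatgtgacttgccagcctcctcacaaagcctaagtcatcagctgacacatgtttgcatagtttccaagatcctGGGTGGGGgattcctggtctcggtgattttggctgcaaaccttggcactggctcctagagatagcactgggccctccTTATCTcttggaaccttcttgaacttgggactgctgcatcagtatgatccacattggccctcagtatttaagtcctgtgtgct
Ulk1: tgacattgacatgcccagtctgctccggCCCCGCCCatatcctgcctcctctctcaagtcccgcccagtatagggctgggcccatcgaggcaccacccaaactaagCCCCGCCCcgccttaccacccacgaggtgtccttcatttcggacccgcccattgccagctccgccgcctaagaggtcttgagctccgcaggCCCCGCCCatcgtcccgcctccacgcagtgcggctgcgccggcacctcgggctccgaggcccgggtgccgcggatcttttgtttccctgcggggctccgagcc
Trim58: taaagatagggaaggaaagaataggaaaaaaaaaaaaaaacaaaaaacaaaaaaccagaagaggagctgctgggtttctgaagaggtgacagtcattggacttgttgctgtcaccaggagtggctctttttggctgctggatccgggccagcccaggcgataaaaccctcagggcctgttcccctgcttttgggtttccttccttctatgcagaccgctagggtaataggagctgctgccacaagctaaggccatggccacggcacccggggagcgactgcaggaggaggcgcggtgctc
Map1lc3b: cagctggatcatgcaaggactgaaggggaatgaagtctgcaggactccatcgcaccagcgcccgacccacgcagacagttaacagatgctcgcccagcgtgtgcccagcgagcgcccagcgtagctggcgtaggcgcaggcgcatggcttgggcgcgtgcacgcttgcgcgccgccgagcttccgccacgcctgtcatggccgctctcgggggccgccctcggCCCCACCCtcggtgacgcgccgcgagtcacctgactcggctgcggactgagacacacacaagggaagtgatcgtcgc

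The first comparison asked which of the 10 genes differ in F4/80+ cells that lack EKLF. Tmcc2, Xpo7, Ulk1, Trim58 and Bnip3l fell in EKLF-/-, Map1lc3b rose, and Foxo3, Ube2o, Ube2l6 and Gabarapl2 did not pass the test. A gene was called at an adjusted p below 0.05 in the quasi-likelihood test of edgeR, after Benjamini-Hochberg adjustment over the 12753 genes tested. By this rule 20.3% of all genes tested differed in EKLF-/-, with 10.6% lower and 9.72% higher, against 5 lower and 1 higher of the 10. The median log2 fold change was -0.60 over the 10 genes and 0.02 over all genes tested. In bulk RNA, fewer cells of a type and less RNA per cell cannot be told apart.

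**Figure D1:**
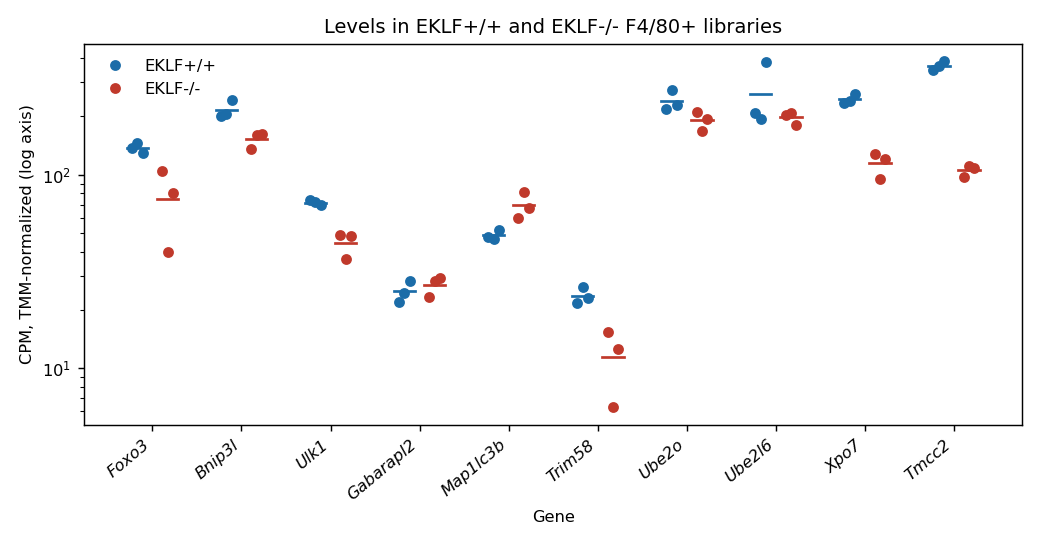
Level of each gene in CPM after TMM normalization (log axis) in the 3 EKLF+/+ (blue) and 3 EKLF-/- (red) libraries, with a line at each group mean. The groups lie apart for 8 genes, with Tmcc2 at 349 to 386 CPM in EKLF+/+ and 97.2 to 111 CPM in EKLF-/-, and overlap for Gabarapl2 and Ube2l6.

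Tmcc2, which encodes a protein with transmembrane and coiled-coil domains, differed most of the 10. It was at 349, 363 and 386 CPM in EKLF+/+ and at 97.2, 111 and 108 CPM in EKLF-/-. The EKLF-/- libraries all lay far below the EKLF+/+ libraries, with little spread in either group. The log2 fold change was -1.80 ± 0.11 (SE, n = 3 per group), with an edgeR adjusted p of 2.24e-05, and 1.6% of all genes tested had a lower log2 fold change. Xpo7, a nuclear export receptor required for nuclear condensation in erythroblasts, was at 235, 241 and 262 CPM in EKLF+/+ and at 128, 95.3 and 120 CPM in EKLF-/-. Its groups did not overlap either, and the log2 fold change was -1.10 ± 0.13 with an edgeR adjusted p of 0.00119. Both falls passed the threshold under all 15 alternative fits, among them those without each library in turn.

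Of the autophagy genes, the kinase and the mitochondrial receptor fell, while the genes of the membrane-bound proteins did not. Ulk1 was at 73.9, 71.9 and 69.4 CPM in EKLF+/+ and at 48.6, 36.8 and 48.2 CPM in EKLF-/-. All EKLF-/- values lay below the EKLF+/+ values, by -0.69 ± 0.13 in log2 (edgeR adjusted p = 0.00974). Bnip3l was at 200, 206 and 244 CPM in EKLF+/+ and at 136, 160 and 163 CPM in EKLF-/-, with a log2 fold change of -0.50 ± 0.12 (edgeR adjusted p = 0.025). Map1lc3b went the other way, from 47.5, 46.4 and 51.5 CPM in EKLF+/+ to 59.4, 81.1 and 67.6 CPM in EKLF-/-. Its groups did not overlap, and the log2 fold change was 0.52 ± 0.13 (edgeR adjusted p = 0.0303). Gabarapl2 was at 22.0, 24.5 and 28.1 CPM in EKLF+/+ and at 23.2, 28.2 and 29.2 CPM in EKLF-/-, where the values of the groups interleave. Its log2 fold change was 0.11, with a 95% confidence interval of -0.22 to 0.45, and it turned to -0.18 once each library's trend with gene length was removed.

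Foxo3 had the widest spread among the EKLF-/- libraries. It was at 138, 145 and 129 CPM in EKLF+/+ and at 104, 39.6 and 80.1 CPM in EKLF-/-, and replicate 2 of EKLF-/- was lowest. The groups did not overlap, but the log2 fold change of -0.88 ± 0.29 did not pass the threshold (edgeR adjusted p = 0.0623). Without that library the log2 fold change was -0.59 with an edgeR adjusted p of 0.00693, and DESeq2 on all libraries gave an adjusted p of 0.0103. Trim58, a ubiquitin ligase that binds dynein and is known for its role in nuclear expulsion, had its EKLF-/- libraries in the same order. It was at 21.8, 26.2 and 22.9 CPM in EKLF+/+ and at 15.4, 6.27 and 12.6 CPM in EKLF-/-, again lowest in replicate 2. Its log2 fold change was -1.05 ± 0.28 (edgeR adjusted p = 0.0344).

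The remaining ubiquitin enzymes did not pass the test. Ube2o, a hybrid ubiquitin enzyme that drives the clearance of ribosomes and other proteins from reticulocytes, was at 220, 273 and 230 CPM in EKLF+/+ and at 211, 169 and 194 CPM in EKLF-/-. These groups lie next to each other without overlap, with a log2 fold change of -0.33 ± 0.13 (edgeR adjusted p = 0.0954), which shrank to -0.019 (edgeR adjusted p = 0.892) with each library's trend with gene length removed. Ube2l6, which conjugates ISG15 and ubiquitin, was at 207, 194 and 383 CPM in EKLF+/+ and at 205, 208 and 181 CPM in EKLF-/-. EKLF+/+ replicate 3 was high and the other 5 libraries lay between 181 and 208 CPM, and the log2 fold change was -0.40 with a 95% confidence interval of -0.95 to 0.15, and -0.046 without that library. Counted by overlap alone, 7 of the 10 genes had every EKLF-/- library below every EKLF+/+ library and 1 had every one above, against 23.4% and 22.9% of all genes tested. Among called genes with at least a 2-fold change, 3 of the 10 were lower (Trim58, Xpo7 and Tmcc2) and none higher, against 4.63% and 2.16% of all.

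The calls of Bnip3l, Trim58 and Map1lc3b did not hold in every fit that left out 1 library. Without any 1 of the EKLF+/+ libraries or without EKLF-/- replicate 3 these calls were lost, with edgeR adjusted p between 0.0586 and 0.0747 for Bnip3l, between 0.08 and 0.113 for Trim58 and between 0.0794 and 0.116 for Map1lc3b, while all 3 were kept without EKLF-/- replicate 1 or 2. Where the calls were lost, Bnip3l stood at -0.43 to -0.56 in log2, Trim58 at -0.99 to -1.12 and Map1lc3b at 0.46 to 0.54. Over all genes, 575 to 632 were called lower and 346 to 426 higher in those fits, against 1356 and 1239 with all libraries. Trim58 was at -1.33 without EKLF-/- replicate 1 and at -0.77 without EKLF-/- replicate 2, and Map1lc3b was at 0.62 and 0.37. With each library's trend with gene length removed, 6 of the 10 genes were called lower and none higher, against 11.7% and 10.6% of all genes. Map1lc3b was then at 0.23 in log2 and not called (edgeR adjusted p = 0.062), and Foxo3 was called lower at -0.80 (edgeR adjusted p = 0.0458). Bnip3l was then at -0.79 (edgeR adjusted p = 0.000936), and Ube2l6 at -0.65 was still not called (edgeR adjusted p = 0.0598). Markers of other cells moved with the groups too. Of 10 erythroid-like markers 6 fell in EKLF-/-, with a median log2 fold change of -1.13, and their summed level was 3948 to 5977 CPM there. Of 8 neutrophil-like markers 5 rose, and their sum was 7618 to 14820 CPM in EKLF-/- against 5548 to 7243 CPM in EKLF+/+. Of 10 macrophage-like markers none rose and 2 fell. Markers of endothelial-like (4 of 6), progenitor-like (3 of 5) and mesenchymal-like cells (3 of 4) fell as well, as did 1 of 3 lymphoid-like markers. Of 6 monocyte-like and 5 mast cell- or basophil-like markers 1 each rose, at list medians of 0.53 and 1.03, and no hepatoblast-like or megakaryocyte-like marker was called. With the length trend removed, 1 of the 4 mesenchymal-like, none of the 3 lymphoid-like and 7 of the 10 erythroid-like markers were lower. By that fit 1 macrophage-like marker was higher and 1 lower. The part of these cells in the differences of the 10 genes was not tested.

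Related genes of the same pathways were read from lists. Of 31 other genes of the autophagy machinery, 4 rose and 2 fell in EKLF-/-, with a median log2 fold change of 0.02 and so little different from that of all genes. Wipi2, which binds the lipid of the growing membrane, fell by 0.56 in log2, and Atg4d, a protease of the LC3 family, fell by 0.50. Gabarap, a close relative of Gabarapl2, rose by 0.57, from a mean of 138 to 206 CPM. Atg7, which activates these proteins for attachment, rose by 0.36, and Gabarapl1 was at 66.7 CPM in EKLF+/+ and 67.1 CPM in EKLF-/-. Of 18 selective autophagy receptors tested 3 rose and 1 fell, which was Optn at -0.50. Those that rose include Bnip3, the closest relative of Bnip3l, at 24.5 CPM in EKLF+/+ and 59.6 CPM in EKLF-/- (log2 fold change 1.27, edgeR adjusted p = 0.0191), opposite to the fall of Bnip3l. Sqstm1, the receptor p62, rose by 0.54 and Fkbp8, a mitochondrial receptor, by 0.50.

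Of 32 other ubiquitin-conjugating enzymes, 3 rose and 5 fell. Ube2e3 fell by 0.61 and Ube2h by 0.55 in log2, while Ube2e1 rose by 0.55 and Ube2l3, the closest relative of Ube2l6, rose by 0.44. With the trend with gene length removed, 1 rose and 9 fell, at a list median of -0.19 in place of 0.02, while the median of all genes was -0.006, and Ube2l3 was at 0.14 and not called (edgeR adjusted p = 0.23). In the Trim family 1 of 43 other genes rose, Trim45 with few counts, and 3 fell, which were Trim59 at -1.05, Trim37 at -0.43 and Trim2 with few counts. Nuclear transport receptors, the family of Xpo7, had 11 of 23 other members lower and 1 higher, at a median log2 fold change of -0.46, and with the trend of each library with gene length removed 9 were lower at a median of -0.22. Xpo4 was at -1.46, Ipo7 at -0.74, Kpna1 at -0.69 and Tnpo2 at -0.61, and Ranbp17, the paralog of Xpo7, was at -1.09 with low counts of 14.9 CPM in EKLF+/+. Of 15 genes of enucleation and nuclear condensation 3 fell and 1 rose. Those that fell were Cit at -1.46, the dynein heavy chain Dync1h1 at -1.01 and the cell cycle regulator Mybl2 at -0.85, and Vim, an intermediate filament lost during maturation, rose by 0.65. Dync1h1 at -0.21 and Trim37 at -0.18 were not called without the length trend (edgeR adjusted p = 0.102 and 0.112). Of 7 tested relatives of Foxo3, Ulk1 and Tmcc2, Ulk4 rose from 1.78 to 3.42 CPM, and Foxo1, Foxo4, Ulk2, Ulk3, Tmcc1 and Tmcc3 did not pass the test. None of 4 ISG15 pathway genes passed it.

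The second comparison asked how the 10 genes differ between F4/80+ cells with and without activity of the EKLF promoter. All 10 genes rose in EKLF/GFP+ cells, and none had overlapping groups. By the same rule 18.9% of the 14238 genes tested were higher in EKLF/GFP+ and 25.8% lower, and 25.2% of all genes had every EKLF/GFP+ library above every EKLF/GFP- library. The log2 fold changes ran from 0.52 for Map1lc3b to 1.68 for Ube2l6, with a median of 0.95 against -0.01 over all genes tested. These libraries were counted with Salmon on transcripts and those above with htseq-count on genes, so levels of both comparisons are not set side by side.

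**Figure D2:**
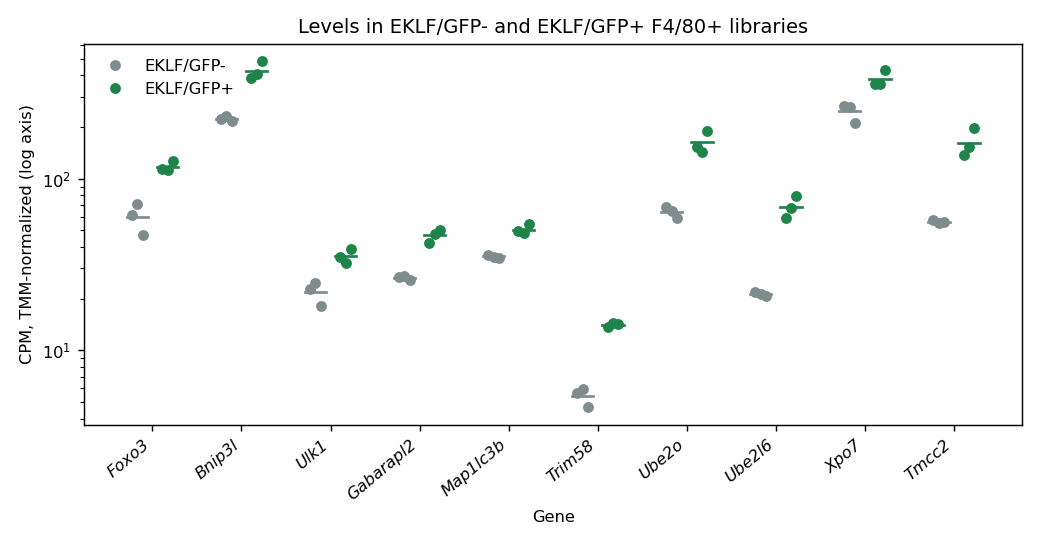
Level of each gene in CPM after TMM normalization (log axis) in the 3 EKLF/GFP- (grey) and 3 EKLF/GFP+ (green) libraries, with a line at each group mean. Every EKLF/GFP+ point lies above every EKLF/GFP- point of the same gene, with Ube2l6 at 58.7 to 79.2 CPM against 20.8 to 22.0 CPM.

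The ubiquitin enzymes and Tmcc2 differed most. Ube2l6 was at 22.0, 21.3 and 20.8 CPM in EKLF/GFP- and at 58.7, 67.4 and 79.2 CPM in EKLF/GFP+. Its EKLF/GFP- libraries were nearly level, and the log2 fold change was 1.68 ± 0.12 (SE, n = 3 per group; edgeR adjusted p = 2.66e-05). Tmcc2 was at 57.7, 55.1 and 55.7 CPM in EKLF/GFP- and at 138, 153 and 196 CPM in EKLF/GFP+, or 1.53 ± 0.13 in log2 (edgeR adjusted p = 5.46e-05). Trim58 had the fewest counts, at 5.64, 5.98 and 4.67 CPM in EKLF/GFP- and at 13.7, 14.3 and 14.2 CPM in EKLF/GFP+. The groups were 1.37 ± 0.13 apart in log2 (edgeR adjusted p = 9.88e-05). Ube2o was at 68.0, 65.0 and 59.1 CPM in EKLF/GFP- and at 154, 144 and 191 CPM in EKLF/GFP+, with a log2 fold change of 1.35 ± 0.12 (edgeR adjusted p = 6.69e-05). These 4 genes also passed a rule that asked for at least a 2-fold change, against 4.99% of all genes, and the other 6 did not.

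The autophagy genes rose by less. Foxo3 was at 61.8, 71.0 and 46.9 CPM in EKLF/GFP- and at 113, 112 and 127 CPM in EKLF/GFP+ (log2 fold change 0.97 ± 0.15, edgeR adjusted p = 0.000976). Bnip3l was at 222, 231 and 216 CPM in EKLF/GFP- and at 386, 408 and 483 CPM in EKLF/GFP+, which is 0.93 ± 0.10 in log2 (edgeR adjusted p = 0.000159). Both genes had a gap between the groups that was wider than the spread within either group. Gabarapl2 was at 26.7, 27.1 and 25.8 CPM in EKLF/GFP- and at 41.99, 47.8 and 50.3 CPM in EKLF/GFP+, a difference of 0.81 ± 0.09. Ulk1 was at 22.7, 24.8 and 18.2 CPM in EKLF/GFP- and at 35.1, 32.3 and 38.8 CPM in EKLF/GFP+, a difference of 0.69 ± 0.13. Map1lc3b showed the smallest difference, 0.52 ± 0.08, from 35.9, 35.2 and 34.7 CPM to 49.3, 48.2 and 54.3 CPM. The edgeR adjusted p was 0.000203 for Gabarapl2, 0.0031 for Ulk1 and 0.00102 for Map1lc3b. Xpo7 was at 266, 262 and 212 CPM in EKLF/GFP- and at 356, 358 and 432 CPM in EKLF/GFP+. Its groups did not overlap, at 0.63 ± 0.12 in log2 (edgeR adjusted p = 0.00311).

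**Figure D3:**
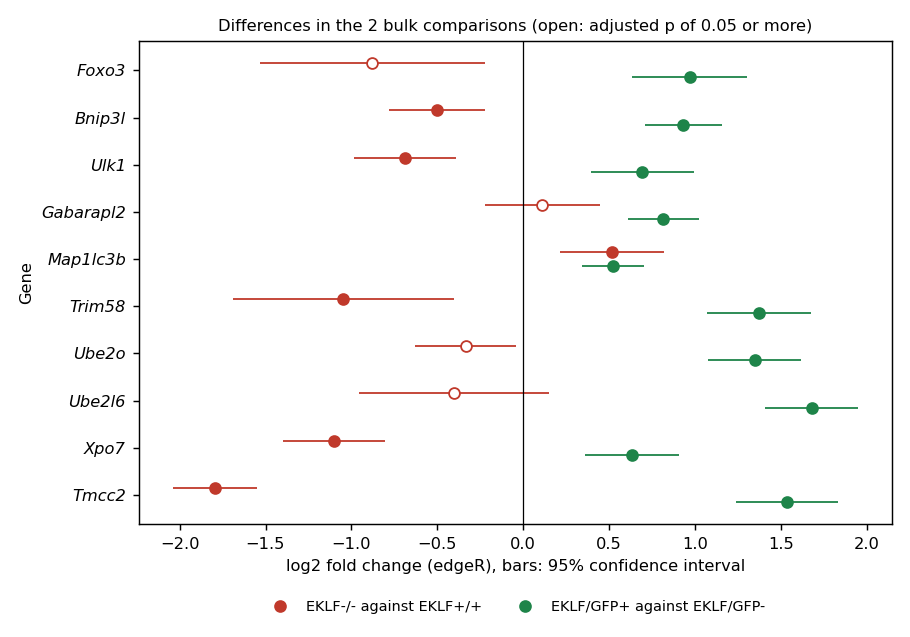
log2 fold change of each gene by edgeR with its 95% confidence interval, for EKLF-/- against EKLF+/+ (red) and EKLF/GFP+ against EKLF/GFP- (green), with open points where the adjusted p was 0.05 or more. All green points lie right of 0, between 0.52 and 1.68, and 8 of the red points lie left of 0, with Map1lc3b at 0.52 in both comparisons.

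Markers moved with the EKLF/GFP groups as well. All 10 erythroid-like markers rose in EKLF/GFP+, with a median log2 fold change of 1.49, and their summed level was 7686 to 9045 CPM against 2980 to 3733 CPM in EKLF/GFP-. All 8 neutrophil-like markers fell, with sums of 469 to 747 CPM against 4036 to 4672 CPM. All 6 monocyte-like, all 5 progenitor-like, all 4 tested lymphoid-like and 4 of 6 endothelial-like markers fell as well, while all 6 megakaryocyte-like markers rose. Of 10 macrophage-like markers 1 fell and none rose, and Adgre1 was at 36.6 to 104 CPM in EKLF/GFP+ and 48.8 to 84.5 CPM in EKLF/GFP-. The part of these cells in the differences of the 10 genes was not tested.

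The related genes did not rise together. Of 31 other autophagy machinery genes 10 rose and 11 fell in EKLF/GFP+, at a median log2 fold change of 0.15. Wipi2 rose by 0.72, Atg4a by 0.62 and the lipid transfer protein Atg2b by 0.61, while Atg3, which attaches LC3 to the membrane, fell by 0.53. Gabarap was at 77.5 CPM in EKLF/GFP- and 80.6 CPM in EKLF/GFP+ and did not pass the test, and Gabarapl1 rose by 0.35. Of 19 selective autophagy receptors 5 rose and 5 fell. Sqstm1 rose by 0.98 and the mitochondrial receptor Bcl2l13 by 0.81, and Bnip3, at 23.7 and 25.9 CPM, did not pass the test. Of 32 other ubiquitin-conjugating enzymes 6 rose and 4 fell, with Ube2e3 up by 0.56, Ube2c up by 0.41, Ube2q1 at -0.75 and Ube2e1 at -0.53. In the Trim family 9 of 41 other genes rose and 20 fell, and Trim10, another erythroid ligase of this family, rose from 58.0 to 163 CPM (log2 fold change 1.49, edgeR adjusted p = 6.87e-05). Nuclear transport receptors had 8 of 23 members higher and 1 lower. Tnpo2 rose by 0.64, Xpo4 by 0.46, Ipo11 by 0.43 and the Xpo7 paralog Ranbp17 by 1.02, and Tnpo1 was at -0.35. Genes of enucleation and nuclear condensation were split, with 5 of 15 higher and 5 lower, among them the formin Diaph3 at 0.82 and Vim at -2.44. Of the relatives of Foxo3, Ulk1 and Tmcc2, Foxo4 rose by 0.67, Foxo1 fell by 0.96 and Ulk2 fell by 0.60. Uba7, which activates ISG15 for Ube2l6, rose by 1.16, from 64.8 to 145 CPM.

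Levels of the genes relative to each other can be read from TPM, the Salmon unit of the authors' files that is scaled to library size and corrected for transcript length. Summed over all transcripts, Bnip3l was the most abundant in EKLF/GFP+ cells, at 777 ± 95.2 TPM (SD, n = 3), above 98.9% of all genes listed, but its protein-coding transcripts alone came to 4.87 ± 1.48 TPM. Ube2l6 followed at 105 ± 19.8 TPM. Xpo7 at 66.6, Tmcc2 at 60.2, Map1lc3b at 53.4, Gabarapl2 at 49.3 and Ube2o at 41.8 TPM came next, and in this order each overlapped with its neighbour across libraries. Foxo3 at 27.2 ± 2.99 TPM and Ulk1 at 18.6 ± 3.02 TPM lay below them and apart from each other, and Trim58 was lowest at 4.13 ± 0.22 TPM. In EKLF/GFP- cells Bnip3l was again highest at 429 ± 17.3 TPM and Trim58 lowest at 1.66 ± 0.23 TPM, but Xpo7 at 44.7 and Map1lc3b at 38.4 TPM stood ahead of Ube2l6 at 33.5 TPM.

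The transcripts behind these sums differ between the genes. All reads of Foxo3 and Trim58 were assigned to protein-coding transcripts, and 96.6% to 98.0% of those of Map1lc3b. For Bnip3l only 4.1% to 10.7% were, since Bnip3l-205, a short transcript annotated as non-coding, took 7274 of 10655 estimated reads in EKLF/GFP+ replicate 1. For Gabarapl2 83.7% to 94.1% of reads went to transcripts with a retained intron, against 8.32% to 9.17% over all genes. In TPM of protein-coding transcripts alone the order changed, with Map1lc3b first at 53.2 ± 6.30 TPM in EKLF/GFP+, Bnip3l seventh and Gabarapl2 last at 2.26 ± 1.06 TPM. Summed over protein-coding transcripts only, Bnip3l had a log2 fold change of 0.85 (edgeR adjusted p = 0.102) and Gabarapl2 of 1.07 (edgeR adjusted p = 0.0584), so that both kept their direction and lost their call. The reads of Tmcc2 went mainly to Tmcc2-206, with 2114, 2086 and 2710 reads in EKLF/GFP+ and 920, 965 and 722 reads in EKLF/GFP-. Tmcc2-206 begins at the internal start whose window is printed above.

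Xpo7 depended on which transcripts were counted. In the authors' table of normalized counts it stood at 17.8, 705 and 28.7 in EKLF/GFP+ and at 1391, 2293 and 661 in EKLF/GFP-, and limma on log2(value + 1) gave a log2 fold change of -4.13, opposite to the sum of all transcripts. These values followed transcript Xpo7-201, which held 0, 397 and 0 estimated reads in EKLF/GFP+ and 949, 1608 and 374 in EKLF/GFP-. Xpo7-203, with 4313, 3447 and 4677 reads in EKLF/GFP+ and 3395, 3794 and 2040 in EKLF/GFP-, and Xpo7-206 and Xpo7-204 carried most reads of the gene. Over all subsets of the 6 Xpo7 transcripts, the pair Xpo7-201 and Xpo7-202 came closest to the authors' values, at a root mean square difference of 0.61 in log2 against 4.97 for all transcripts. The authors' values for Ulk1 likewise matched transcript Ulk1-201 alone, at 0.015 in log2 against 2.64 for the sum, and in that table the Ulk1 difference did not pass the test (log2 fold change 0.78, limma adjusted p = 0.171). For the other 8 genes the sum of all transcripts was within 0.13 in log2 of the authors' values. For Xpo7 in single cells and in the EKLF-/- comparison, counts were made per gene.

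**Figure D4:**
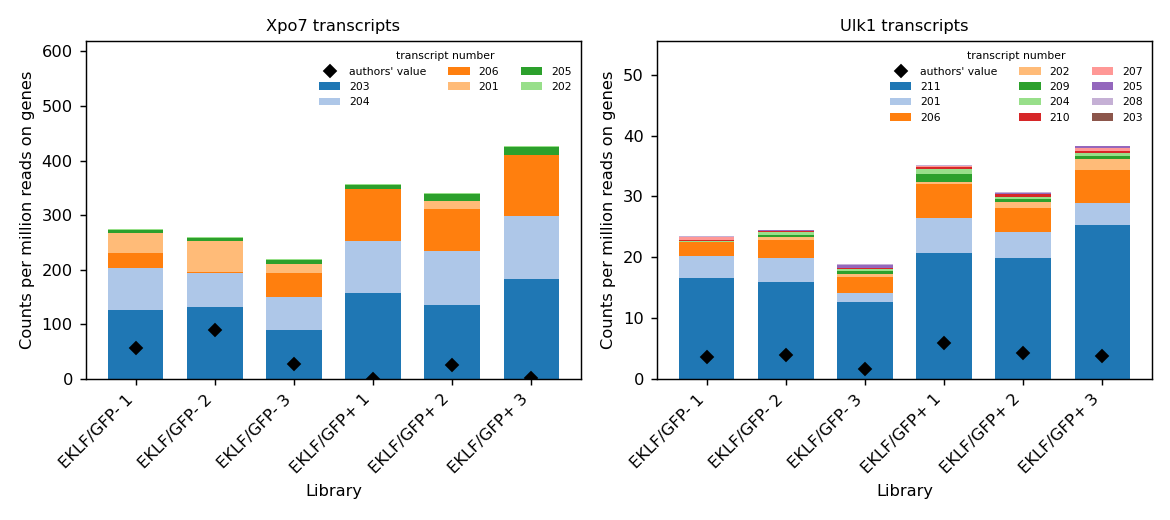
Estimated reads of each transcript of Xpo7 (left) and Ulk1 (right) in CPM of the reads on genes, stacked by library, with the authors' normalized count of the gene rescaled to the same unit (diamonds). The stacks of Xpo7 are taller in EKLF/GFP+ than in EKLF/GFP-, while the diamonds are lower there, near 0.69 and 1.09 in replicates 1 and 3.

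In single cells the genes were described by cluster, with no test since there is 1 sample. Of 3096 barcodes 3093 had at least 200 detected genes, with a median of 18605 counts, and they fell into 14 clusters that were built without the 10 genes and the pathway lists. Clusters were named from marker lists. Clusters 0, 1 and 2 were macrophage-like (1431 cells), clusters 4, 6 and 7 erythroid-like (621 cells), and 6 clusters each carried markers of 1 other class, while clusters 8 and 13 stayed unnamed. In F4/80+ cells, the erythroid-like clusters held Adgre1 counts in 33.2% to 51.2% of cells, at 29.9 to 44.6 CPM, against 353 to 693 CPM in the macrophage-like clusters and 22.7 to 54.1 CPM in neutrophil-, progenitor-, megakaryocyte-, endothelial- and hepatoblast-like ones. Summed over classes, 8 of the 10 genes were higher in erythroid-like than in macrophage-like cells with exact Poisson 95% intervals apart, which cover counting error only. By the same rule 21.2% of 10190 genes were higher and 61.0% lower, where genes at 5 CPM or more in either class or in cluster 8, described below, were counted. More than 2-fold higher were 5 of the 10 genes and 8.12% of all. With globin genes left out of the total, a choice made after the data were seen, 9 of the 10 genes were higher with intervals apart against 33.4% of all, 1 was lower against 47.0%, and 7 were more than 2-fold higher against 12.5%. Ube2l6 was at 116 against 28.1 CPM, Tmcc2 at 193 against 50.5 CPM, Ube2o at 64.8 against 19.7 CPM and Foxo3 at 46.3 against 20.1 CPM. Map1lc3b was lower, at 130 against 207 CPM, and the intervals of Gabarapl2 overlapped at 94.5 and 96.0 CPM. Without globin genes in the total Gabarapl2 was higher, at 124 against 96.9 CPM, and Map1lc3b still lower, at 170 against 209 CPM. Trim58 had few counts, at 1.65 against 0.19 CPM, and was at 5.17 CPM in megakaryocyte-like cells. Ulk1, at 15.6 CPM in erythroid-like cells, was at 21.7 CPM in progenitor-like and 21.05 CPM in endothelial-like cells, with overlapping intervals. Bnip3l was at 190 CPM, against 182 CPM in megakaryocyte-like and endothelial-like cells, and at 249.5 against 182 CPM without globin genes. Foxo3, Ube2o, Ube2l6, Xpo7 and Tmcc2 were higher in erythroid-like cells than in every other named class.

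Within the erythroid-like class the genes differed by cluster. Globin genes made up 2.09% of counts in cluster 4, 39.5% in cluster 6 and 75.9% in cluster 7, and Klf1 was at 144, 164 and 35.4 CPM, or at 147, 271 and 147 CPM with globin genes left out of the total. Tmcc2 stood at 36.7, 124 and 861 CPM in clusters 4, 6 and 7, in the order of their globin shares. Ube2o stood at 20.4, 49.0 and 248 CPM, and Bnip3l at 135, 194 and 378 CPM. Xpo7 was at 28.6 and 42.9 CPM in clusters 4 and 6, below the 48.5 to 62.6 CPM of the macrophage-like clusters, and at 510 CPM in cluster 7. Without globin genes in the total Xpo7 was at 29.15 CPM in cluster 4 and 71.0 CPM in cluster 6. The macrophage-like clusters were then at 49.2 to 63.1 CPM, so that cluster 6 stood above them, with overlapping intervals for clusters 1 and 2. Foxo3 and Ube2l6 were already high in cluster 6, at 72.7 and 202 CPM against 27.0 and 41.1 CPM in cluster 4, and stood at 71.7 and 239 CPM in cluster 7. Without globin genes in the total, Foxo3 rose from 120 CPM in cluster 6 to 297 CPM in cluster 7, and Ube2l6 from 333 to 992 CPM. Ulk1 was at 13.3, 16.6 and 22.2 CPM, and at 27.4 and 91.9 CPM in clusters 6 and 7 without globin genes in the total. With globin genes left out of the total, cluster 7 was the highest of all clusters for each of the 10 genes except Ulk1, with Tmcc2 at 3569 CPM and Xpo7 at 2116 CPM. Since globin made up 75.9% of its counts, this choice raises every other gene of cluster 7 as well. The share of all genes that were then highest in cluster 7 was not counted.

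**Figure D5:**
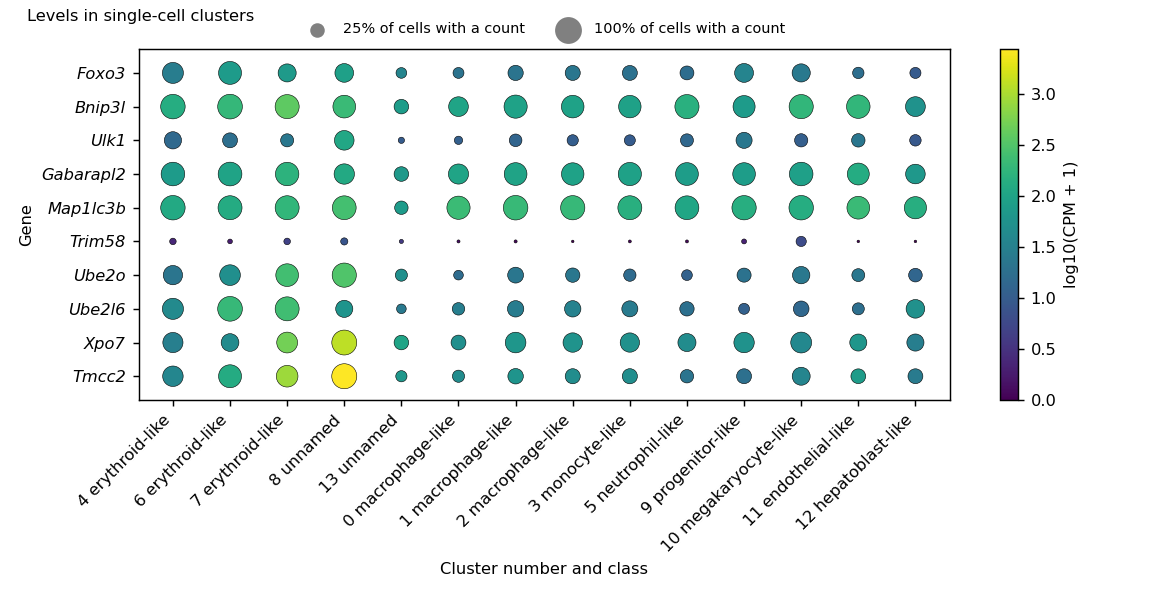
Level of each gene as log10(CPM + 1) (colour) and share of cells with a count (area) in the 14 single-cell clusters, ordered as erythroid-like, unnamed and other classes. Tmcc2 and Xpo7 are highest in cluster 8, at 2714 and 1246 CPM, followed by cluster 7 at 861 and 510 CPM.

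Cluster 8, of 123 cells, carried markers of both classes and stayed unnamed. There 7 macrophage-like and 6 erythroid-like markers were at least 2-fold above the rest of the cells, with Adgre1 at 511 CPM, C1qa at 1314 CPM, Slc4a1 at 544 CPM and Epb42 at 154 CPM. Globin made up 3.47% of its counts and Klf1 was at 11.4 CPM. Tmcc2 reached 2714 CPM (95% interval 2629 to 2802) and Xpo7 1246 CPM (1189 to 1306), above the 861 and 510 CPM of cluster 7. Ube2o was at 304 CPM (275 to 334), Ulk1 at 109 CPM (92.0 to 127) and Map1lc3b at 259 CPM (233 to 287), each also above the next cluster with intervals apart. Foxo3 at 86.4 CPM and Trim58 at 7.14 CPM led as well, but their intervals overlapped with the next cluster. Ube2l6, at 58.6 CPM, Bnip3l, at 214 CPM, and Gabarapl2, at 117.5 CPM, were below their levels in cluster 7. With globin genes left out of the total, cluster 7 was above cluster 8 for 9 genes, Ube2l6, Bnip3l and Gabarapl2 among them, though with overlapping intervals for Trim58. Ulk1 was then at 112 CPM in cluster 8 and at 91.9 CPM in cluster 7, also with overlapping intervals. The share of all genes with cluster 7 above cluster 8 by this total was not counted.

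The values of cluster 8 were spread over its cells. At least 5 Tmcc2 counts were found in 121 of its 123 cells, at least 5 of both Tmcc2 and Xpo7 in 107, and the median cell held 2646 CPM of Tmcc2. In clusters 0, 1 and 2 at least 5 Tmcc2 counts were found in 1.9%, 5.0% and 2.9% of cells, and in cluster 7 in 56.5%. With every cell thinned to 5000 counts, Tmcc2 was found in 99.1% of 116 cells of cluster 8, 64.1% of 184 in cluster 7 and 12.9% of 404 in cluster 1. In the hepatoblast-like cluster, whose cells are neither erythroid nor macrophages by their markers, the thinned share was 15.6% (unthinned 34.8%, at a median of 18504 counts per cell, against all 123 cells at a median of 8270 in cluster 8). It was 12.6% in all macrophage-like cells, 8.77% in neutrophil-like and 5.94% in progenitor-like cells, while the level was 50.5 CPM in macrophage-like and 24.9 CPM in hepatoblast-like cells. The part of free RNA in the macrophage-like share was not tested. For each 1000 globin counts cluster 8 held 78.1 Tmcc2 counts and cluster 7 held 1.13, so Tmcc2 and the globins did not keep 1 ratio across these clusters. Cluster 8 made up 1.99% of all counts and held 38.9% of those of Tmcc2, 26.8% of Xpo7, 16.4% of Ube2o and 15% of Ulk1. Scrublet called no doublets and none were removed, and its median score was 0.039 in cluster 8, within the 0.011 to 0.049 of all clusters. Without the 5% of cells with the highest scores, a choice made after the data were seen, cluster 8 held 109 cells with Tmcc2 at 3231 CPM and Xpo7 at 1453 CPM. A droplet that holds a macrophage together with a red cell precursor cannot be told apart here from a cell that expresses both sets of genes.

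Genes with a profile over the 14 clusters most like the mean of the 10 were, by Pearson's r of log2(CPM + 10), Slfn14 (0.966), Sowaha (0.96), Fam220a (0.958), Fam214b (0.956) and Tent5c (0.955). The clusters share 1 library, so this is a description only. In the bulk comparisons these 5 genes were at log2 fold changes of -1.41, -5.06, -0.98, -0.11 and -1.996 in EKLF-/-, where Fam214b did not pass the test, and at 1.59, 1.504, 1.01, 1.39 and 1.96 in EKLF/GFP+. Among the 10 genes themselves, Tmcc2 (0.97), Ube2o (0.94) and Xpo7 (0.89) tracked the mean of the others most closely and Map1lc3b least (0.39). Relative to macrophage-like cells, 8 of 31 autophagy machinery genes were over 2-fold higher in cluster 8, 1 of 29 ubiquitin-conjugating enzymes and 0 of 22 nuclear transport receptors, against 8 of the 10 genes and 6.69% of 10190 genes at 5 CPM or more in any of these 3 sets of cells. Trim58 reached 5 CPM only in cluster 8 and so had to be higher there.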

How the data were processed

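Sorted F4/80+ fetal liver cells were profiled by bulk RNA-Seq in 12 libraries (3 per group) and by 1 Chromium library. For EKLF+/+ and EKLF-/- the authors deposited raw counts per gene (STAR on mm10, HTSeq). For EKLF/GFP the authors deposited Salmon estimated counts and TPM per transcript on GRCm38, which were summed per gene and rounded here, and a table of normalized counts (a signal with DESeq2 size factors) that served as an alternative only. The single-cell matrix holds estimated counts that the authors made with alevin. Versions are not given in the sources used here, and 5 per-sample columns in the count file of EKLF+/+ replicate 1, which repeat the other libraries' own files, were not used. A further table of EKLF+/+ and EKLF-/-, which holds log2 of the counts and the authors' own log2 differences, was not used.

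Each comparison was fitted alone with edgeR 4.0.16 in R 4.3.3 (TMM, quasi-likelihood, two-sided). Genes needed at least 10 counts in at least 3 of 6 libraries, and a gene was called at an adjusted p under 0.05. Gene sequences around transcript starts came from RefSeq on GRCm38. Cells with at least 200 detected genes were clustered with Seurat 5.3.0 (4000 variable genes, 30 components, resolution 0.8), doublets were scored with Scrublet in scanpy 1.11.5, and classes were named from at least 3 markers. Intervals are exact Poisson or binomial at 95% and cover counting error only. The code was tested on simulated data. Alternatives were other size factors and count filters, DESeq2 1.42.0, removal of a trend with gene length, globin genes left out, leaving out each library, a block on replicate number, limma 3.58.1 on log2 of the authors' values plus 1 or 10, and other settings for cells. Sums over protein-coding transcripts, Y-linked counts as a covariate, removal of the highest doublet scores and single-cell totals without globin genes were added after the data were seen.

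The 10 genes and the lists were chosen with earlier results of these data known. Named were all 10 genes, Klf1, up to 4 called genes of each list with the largest change, no overlap and a mean of at least 50 CPM, close relatives, and the 5 genes with the most similar cluster profile. Optn, Trim2, Trim45 and the marker genes named by cluster were chosen after their values were seen.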

Additional observations from a re-analysis of the deposited data

How the results depend on the processing

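In EKLF-/- against EKLF+/+, 126 of 150 values of the 10 genes kept their direction and their side of the threshold over 15 alternatives, and in EKLF/GFP+ against EKLF/GFP- 174 of 180 did over 18. Genes called higher in EKLF-/- went from 1 to 0 with the gene length trend removed, with or without the replicate block, with the block alone, and when a change of at least 2-fold was asked for. The number called lower went from 5 to 3 when at least 2-fold was asked for. Without 1 library at a time, 0 to 1 were called higher and 3 to 6 lower, while over all genes 346 to 1730 were higher and 575 to 1889 lower, and 3 remained called lower (Ulk1, Xpo7, Tmcc2) without any 1 of the EKLF+/+ libraries or without EKLF-/- replicate 3. Gabarapl2 turned to -0.176 without the length trend and to -0.178 with the block as well. In EKLF/GFP+ the count of higher genes went from 10 to 4 at 2-fold or more and stayed at 10 without each library. With the authors' normalized values plus 1 or plus 10, 1 gene was called lower, Xpo7, at -4.128 and -3.818, in values that came closest to 2 of its 6 transcripts. In single cells 6 to 9 genes were higher in erythroid-like cells over 8 alternatives, against 8, and leaving out called doublets was no test since none were called. With the length trend removed, the genes called in EKLF-/- went from 4 to 7 higher in the autophagy machinery, from 3 to 5 higher among the selective autophagy receptors, from 1 to 2 higher among the relatives of Foxo3, Ulk1 and Tmcc2 and among the enucleation genes, and from 3 to 1 higher and 5 to 9 lower among the ubiquitin-conjugating enzymes, while over all genes 1350 were higher and 1491 lower, against 1239 and 1356.

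Deviations of libraries with the same replicate number correlated at -0.09 to 0.056, and those of libraries with unlike numbers at -0.156 to 0.165. With 3 libraries per group, these values cannot decide whether libraries were paired. With the replicate block 0 genes were called higher and 5 lower in EKLF-/-, and 10 higher in EKLF/GFP+. Over all genes the block left 864 higher and 1037 lower in EKLF-/-. Trim58 had few counts, 82 to 393 per library in bulk.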
